A study of Gallus gallus with 4 samples.

Results

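Binding of CTCF was mapped by chromatin immunoprecipitation and sequencing in the chicken erythroid line HD3 before and after differentiation was induced, and in the chicken lymphoid line DT40. The sites described here are those at which a peak was called in HD3 after induction and none was called in HD3 without it. Peaks of the 3 lists that shared at least 1 bp were merged into sites, and the sites with an induced HD3 peak and no non-induced HD3 peak were kept on chromosomes 1, 3 to 10, 12 to 19 and 21 to 28. This gave 273 sites out of 10842 on these 25 chromosomes (2.52%) and out of 15733 sites in the whole series. Of the 273 sites, 130 also had a DT40 peak and 143 had none. On the same chromosomes there were 3833 sites with an induced HD3 peak, so that the sites called only after induction made up 7.12% of them. The sites were chosen by the peak calls of the HD3 libraries, so their number is a description.

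The HD3 cells are erythroblasts that avian erythroblastosis virus had transformed, and those used were clone A6 of the line LSCC. Differentiation was induced with iso-H-7, a protein kinase inhibitor, in medium buffered with HEPES, at raised temperature and in air. The length of the induction is not given in the sources used here. DT40 is a B-lymphoid line and received no induction. All precipitations used a custom rabbit antibody raised against amino acids 86 to 233 of chicken CTCF. Each of the 3 conditions was represented by 1 library, and an HD3 input library was not analysed here. The lists hold 8768 peaks for non-induced HD3, 4820 for induced HD3 and 13574 for DT40. They hold neither read counts nor expression values, so the depth is unknown and neither the cell identity nor the differentiation can be checked against marker genes. No difference below has a replicate check, and no test between conditions was possible. The intervals are exact 95% intervals for counting error only, and they treat sites as independent. A site with no peak in a list was not called there, which does not show that CTCF was absent.

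CTCF binds DNA through a row of zinc fingers and, with cohesin, holds the bases of chromatin loops. It also acts at insulators, which keep enhancers and silent chromatin from acting on neighbouring genes, and the insulator of the chicken beta-globin locus was an early example of such an element. In erythroid cells CTCF sites flank the globin gene domains, whose genes become highly active as the cells mature.

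The rule leaves out every site that touches a peak of non-induced cells, so the gaps given here only describe the sites called only after induction. The closest of them, chr1:181851972-181852989 (galGal4, positions counted from 1), lay 461 bp from a non-induced peak. The next lay 857 bp away, at chr13:376211-376785, and 1095 bp away, at chr28:2201618-2202426. Their induced scores were 54.3, 54.1 and 59.0, close to the lowest score of 50 in the list. On the other side of the rule, the smallest overlap between an induced and a non-induced peak was 286 bp, at chr5:30068157-30068442, where the whole induced peak lay inside the non-induced peak at 30068041 to 30068545. The next smallest overlaps were 330 bp at chr23:158252-158581 and 355 bp at chr14:2391514-2391868, again with the whole induced peak inside. Of the 3597 induced peaks in sites with a non-induced peak, 3586 lay wholly inside it. Non-induced peaks were longer, with a median of 1220 bp over all 7063 of them on these chromosomes, with or without an induced peak. The median was 654 bp for the induced peaks of sites called in both states. No induced peak therefore met or missed the rule by a few base pairs. Of the 273 sites, 2 lay within 1 kb of a non-induced peak and 46 within 10 kb. No non-induced peak of another site lay within 10 kb of 83.2% of them (227 of 273, interval 78.2 to 87.4). This was also so for most sites of DT40 alone (75.3%, 2641 of 3506) and of non-induced HD3 alone (73.8%, 918 of 1244).

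Most of these sites were low-scored peaks of the induced list. Each consisted of a single induced peak. The caller score is the authors' own value for each peak, has no stated scale and is read here only within its list. Over the 273 sites it ran from 50.0 to 231, with a median of 60.8 (interquartile range 54.3 to 72.3). The 3560 sites called in both HD3 states had a median of 90.9 (65.6 to 139) and a highest value of 1407. A score under 75 was found at 220 of the 273 sites (80.6%, interval 75.4 to 85.1) and at 1280 of the 3560 others (36.0%, interval 34.4 to 37.6). The median rank of the 273 sites was the 20.3rd percentile of the induced list, and 1 site was among its highest 10%. The share of induced sites that lacked a non-induced peak was 17.6% (128 of 727) at scores of 50 to 60 and 11.9% (92 of 773) at 60 to 75. It was 3.96% (30 of 757) at 75 to 100 and 1.46% (23 of 1576) at 100 or more. These values describe the list that chose the sites.

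A small number of the sites stood out by the length of the induced peak. The 273 sites had a median induced peak of 621 bp (interquartile range 559 to 759), near the 654 bp (596 to 721) of sites called in both states. The upper end differed: induced peaks of 1500 bp or longer, a length chosen after the values were seen, numbered 31, and 26 of them (83.9%, interval 66.3 to 94.5) had no non-induced peak. Among the 3802 sites with a shorter induced peak the share was 6.50% (247 sites, interval 5.73 to 7.33). It was not even across these lengths. Under 500 bp it was 16.8% (32 of 191), and at 500 to under 700 bp it was 6.49% (157 of 2419). At 700 to under 1000 bp it was 3.74% (41 of 1096), and at 1000 to under 1500 bp 17.7% (17 of 96). The 26 broad peaks had a median length of 2914 bp and a median score of 94.2, at the 55.8th percentile of the list. The 247 shorter ones had a median length of 612 bp and a median score of 59.8. The 5 broad induced peaks that did have a non-induced peak included 3 within chromosome 1 between 77706827 and 77952337, the others lying at chr3:80821602-80825297 and at chr21:5889686-5894844.

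**Figure D1:**
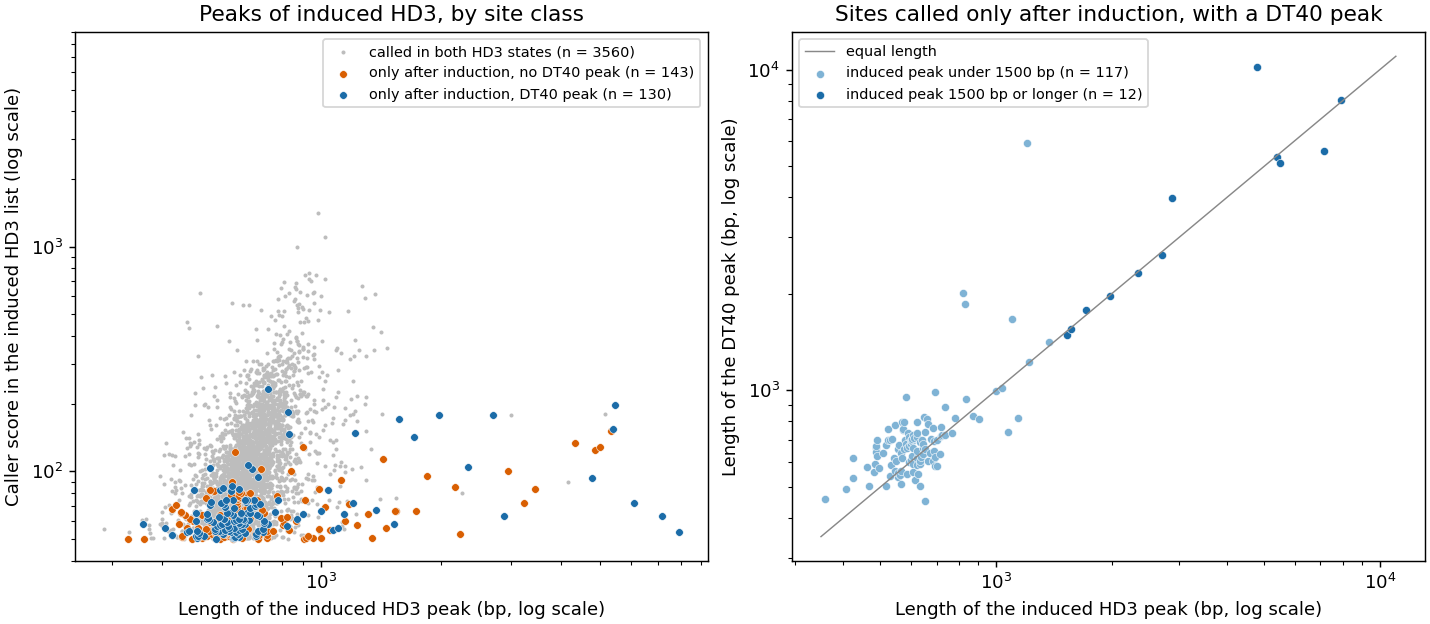
Left, length (bp) and caller score of the induced HD3 peak of each site, both on log axes, with sites called only after induction in colour and sites called in both HD3 states in grey. Right, lengths (bp, log axes) of the induced HD3 peak and the DT40 peak at the 129 sites called only after induction that hold a single DT40 peak. Most coloured points lie at low score near the usual length, while 26 lie at 1500 bp or longer, where few grey points are found.

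Of the 26 broad sites, 13 also had a DT40 peak, and the broad peak often had nearly the same edges in both lines. The DT40 list is separate from the HD3 lists, but the sources used here do not give the control behind each list. On chromosome 17 the induced peak ran from 69327 to 71307 and the DT40 peak from 69333 to 71304, with scores of 177 and 127 in their own lists. Its neighbour on chromosome 17 ran from 79267 to 84741 in induced HD3 and from 79620 to 84735 in DT40. On chromosome 8 the peaks ran from 8923206 to 8928598 and from 8923212 to 8928547. At these 3 sites no non-induced HD3 peak was called within 200 kb. Over the 12 broad sites with a single DT40 peak, the larger of the start and end offsets had a median of 77 bp, on induced peaks with a median of 2794 bp. In 6 of the 12 both edges lay within 100 bp of those of DT40, and the largest offset was 5395 bp. Spearman's rho between the lengths was 0.92 over these 12 sites, which is a correlation across sites and not across samples. Between the induced and the DT40 scores of the same sites it was 0.028. Edges within 100 bp were not particular to the broad sites. They were found at 71 of 117 shorter ones (60.7%, interval 51.2 to 69.6) and at 1421 of 2882 sites called in all 3 lists with 1 peak each (49.3%, interval 47.5 to 51.1). The limit of 100 bp is a larger part of a shorter peak, so these shares do not compare closeness relative to length.

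The induced peak was longer than 3000 bp at 12 of the 273 sites. Those with a DT40 peak included the one on chromosome 17 at 79267 and the one on chromosome 8 just described. The longest was on chromosome 3, at 41102745 to 41110652 (7908 bp, score 53.7), with a DT40 peak at 41102721 to 41110761. On chromosome 12 an induced peak at 2305381 to 2312531 (7151 bp, score 63.0) had a DT40 peak at 2305252 to 2310823. On chromosome 1 there was an induced peak at 191972186 to 191978287 (6102 bp) that held 2 DT40 peaks. Another, of 4795 bp, ended at 193416391 within a few bases of the end of a DT40 peak of 10179 bp. The 6 without a DT40 peak were at chr1:1827454-1832457, chr1:1854146-1858486, chr1:76137615-76141053, chr3:99564180-99569048, chr6:5482178-5487531 and chr27:860669-863896. The share of the 26 broad sites with a DT40 peak, 50.0% (interval 29.9 to 70.1), was close to the 47.4% (117 of 247, interval 41.0 to 53.8) of the shorter ones.

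The next question was how often these sites are also CTCF sites in the lymphoid line, which the rule did not use. Of the 273 sites, 130 were called in DT40 (47.6%, interval 41.6 to 53.7). Over all 3833 induced HD3 sites the share was 80.9%, and for the 3560 called in both HD3 states it was 83.5% (interval 82.2 to 84.7). For the 3503 sites of the opposite kind, with a non-induced and no induced peak, 49.6% of the 7063 non-induced sites, it was 64.5% (interval 62.9 to 66.1). Sites called only after induction were therefore shared with DT40 less often than those of both other groups, and the intervals did not overlap. Sites of the opposite kind were not compared at like score or like peak length. They rest on peaks of the non-induced list, whose median length on these chromosomes was 1220 bp, against 621 bp for the 273 induced peaks. The difference from sites of both states was also found at like induced score. Those sites also hold a non-induced peak, so they have a second HD3 call and mostly a longer merged span that a DT40 peak can touch. Neither was allowed for. The HD3 calls chose both groups, so these shares are a description. At induced scores of 50 to 60 the share was 43.8% (56 of 128, interval 35.0 to 52.8) against 77.5% (464 of 599, interval 73.9 to 80.7). At 60 to 75 it was 55.4% (51 of 92) against 78.6% (535 of 681). At 75 to 100 it was 30.0% (9 of 30, interval 14.7 to 49.4) against 82.5% (600 of 727). At 100 or more it was 60.9% (14 of 23, interval 38.5 to 80.3) against 88.3% (1372 of 1553). The intervals did not overlap in any of the 4 ranges. In a further comparison the 4820 highest-scored peaks of each list were kept. This left the induced list whole but cut the non-induced list from 8768 peaks and the DT40 list from 13574. An induced peak and no kept non-induced peak were then found at 908 sites, with 21.3% in DT40. Both HD3 peaks were found at 2925 sites, with 65.5% in DT40. The 908 include sites whose non-induced peak was left out, so they go beyond the 273 sites described here.

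**Figure D2:**
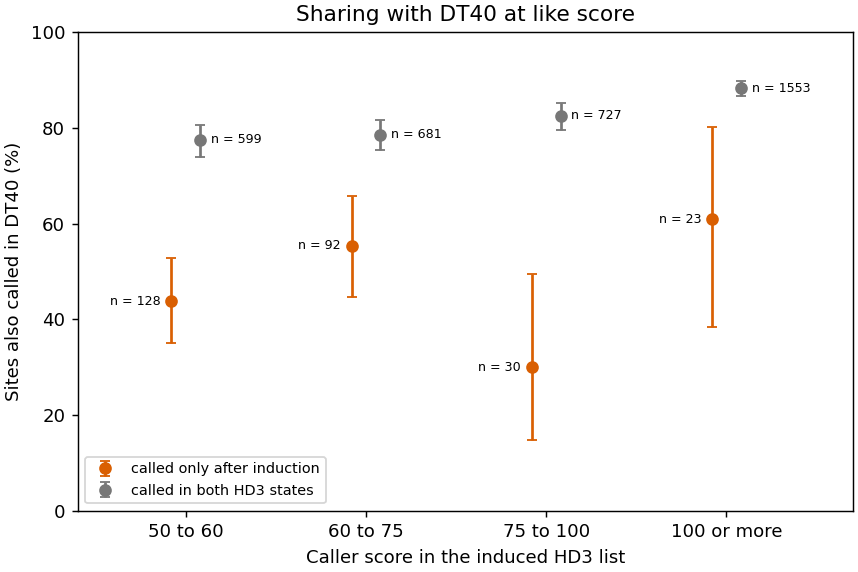
Share of sites (%) also called in DT40, by caller score in the induced HD3 list, for sites called only after induction and for sites called in both HD3 states. Points are shares, bars are exact 95% binomial intervals for counting error, and n is the number of sites. The orange points lie between 30.0% and 60.9% and the grey points between 77.5% and 88.3%.

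The DT40 sites can also be split by their calls in the HD3 lists. Those calls chose the sites described here, so the shares only describe how far both HD3 lists agree at DT40 sites. On these chromosomes 3636 DT40 sites had no non-induced HD3 peak, and 3.58% of them (130) were called after induction. Of the 5230 DT40 sites that had a non-induced peak, 56.8% (2971) were called after induction. With a non-induced peak, the share called after induction was higher in each higher range of DT40 score, from 21.9% (65 of 297) at scores of 50 to 60 to 97.5% (385 of 395) at 500 or more. Without a non-induced peak there was no such order. The share was 3.10% (23 of 743) at 50 to 60, 1.42% (11 of 772) at 60 to 75 and 3.63% (31 of 854) at 75 to 100. It was 5.54% (54 of 975) at 100 to 200, 2.38% (6 of 252) at 200 to 500 and 12.5% (5 of 40, interval 4.19 to 26.8) at 500 or more. At DT40 scores of 200 to 500, the values were 2.38% (interval 0.879 to 5.11) without and 83.7% (interval 81.8 to 85.5) with a non-induced peak. DT40 peaks of 1500 bp or longer with no non-induced peak were called after induction in 15.5% of cases (16 of 103, interval 9.15 to 24.0), and shorter ones in 3.23% (114 of 3533, interval 2.67 to 3.86). With a non-induced peak the shares were 71.1% (27 of 38, interval 54.1 to 84.6) for the longer and 56.7% (2944 of 5192, interval 55.3 to 58.1) for the shorter DT40 peaks, and these intervals overlap.

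**Figure D3:**
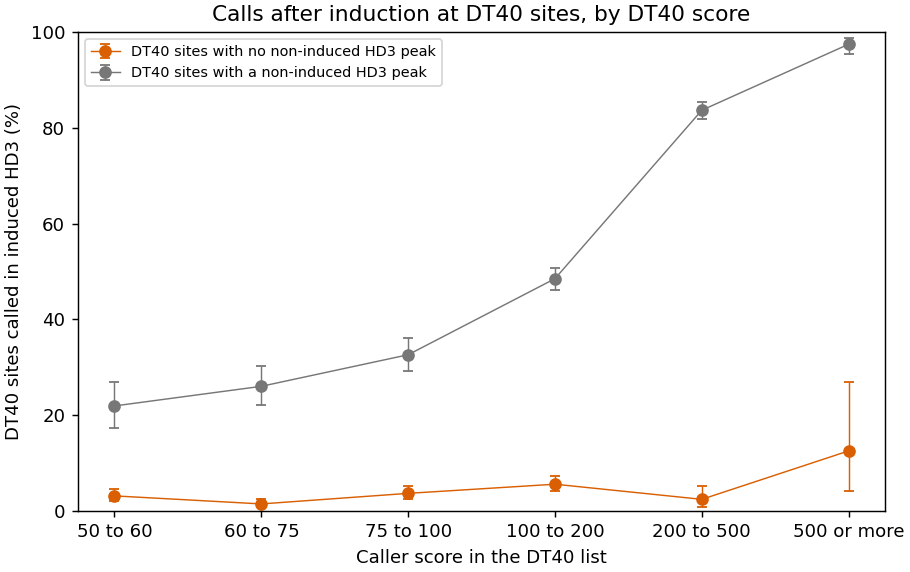
Share of DT40 sites (%) called in induced HD3, by caller score in the DT40 list, for DT40 sites without and with a non-induced HD3 peak. Points are shares and bars are exact 95% binomial intervals for counting error. The grey line climbs from 21.9% to 97.5%, while the orange points stay between 1.42% and 12.5%.

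In DT40 itself the shared sites were of middling rank. The median score rank of the 130 sites in the DT40 list was the 43.4th percentile (interquartile range 24.5 to 60.4). The median rank was the 78.9th percentile for sites of all 3 lists, the 46.0th for those of non-induced HD3 with DT40 and the 31.3rd for DT40 alone. Across single pairs, Spearman's rho between the induced and the DT40 score was 0.25 over 129 sites called only after induction and 0.65 over 2882 sites of all 3 lists. The narrower range of induced scores among the former was not allowed for, and no test was made. The 5 with a DT40 score of 500 or more were named after their values were seen. They include the DT40 peak at chr14:14291893-14297809, which has the top score of the DT40 list (3100, also held by other peaks) and covers an induced peak of 1206 bp with a score of 72.3. Another, at chr1:139326738-139327737, had a DT40 score of 635 and an induced score of 66.4. Another lay near the start of chromosome 1, with an induced peak at 3191 to 4757 (score 171) and a DT40 peak at 3200 to 4754 (score 1062).

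The highest induced scores with a DT40 peak fell in 3 places. On chromosome 1, induced peaks at 100391489 to 100392225 (score 231) and 100390521 to 100391349 (score 184) met DT40 peaks with scores of 786 and 1915, and these are the remaining sites with a DT40 score above 500. On chromosome 17, the peaks described above at 79267 and 69327 had induced scores of 197 and 177. On chromosome 5 an induced peak of 2707 bp at 56596287 to 56598993 (score 178) met a DT40 peak of 2634 bp at 56596390 to 56599023 (score 125). The list of non-induced HD3 has no peak at any of them, the nearest being 18.2 kb away on chromosome 1, 266 kb on chromosome 17 and 20.1 kb on chromosome 5. The highest induced scores without a DT40 peak were mostly broad peaks. They lay at chr6:5482178-5487531 (score 151), at chr1:1854146-1858486 (score 134), at chr1:1827454-1832457 (score 128), and at chr3:99564180-99569048 (score 124). The exception was a peak of 900 bp at chr17:10451683-10452582 (score 128), the last peak of that chromosome in any list.

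Pooled over all chromosomes used, sites called only after induction lay farther from neighbouring peaks of non-induced cells than sites of both HD3 states did. The gap from a merged site to the nearest non-induced peak of another site had a median of 33.1 kb (interquartile range 15.0 to 80.9), against 21.9 kb (8.03 to 51.1) for sites of both HD3 states. Without a DT40 peak the median was 40.6 kb (14.1 to 99.9), and with one it was 28.9 kb (15.6 to 57.6). For DT40 alone, which also has no non-induced peak at the site, it was 27.1 kb (10.1 to 64.1). No non-induced peak was found within 100 kb of 59 of the 273 sites (21.6%, interval 16.9 to 27). This was so for 25.2% of those without a DT40 peak (36 of 143, interval 18.3 to 33.1) and 17.7% of those with one (23 of 130, interval 11.6 to 25.4). For DT40 alone it was 15.2% (533 of 3506, interval 14.0 to 16.4). Among HD3 sites that also lacked a DT40 peak, it was 15.6% (92 of 589, interval 12.8 to 18.8) for those of both HD3 lists and 16.6% (207 of 1244, interval 14.6 to 18.8) for non-induced HD3 alone. The interval for sites called only after induction without a DT40 peak overlaps the last 2 intervals at their edge and does not overlap that of DT40 alone. The interval for those with a DT40 peak overlaps all 3. Among HD3 sites that also had a DT40 peak, the share was 9.42% (280 of 2971, interval 8.4 to 10.5) for all 3 lists. It was 9.03% (204 of 2259, interval 7.88 to 10.3) for non-induced HD3 with DT40. The interval for sites called only after induction with a DT40 peak lies above both of these. The rule removes sites that touch a non-induced peak but sets no distance beyond that. Sites called only after induction without a DT40 peak had no other induced peak within 100 kb in 38.5% (interval 30.5 to 47.0). For both HD3 lists it was 29.5% (interval 25.9 to 33.4), which overlaps, and for non-induced HD3 alone 35.9%. In the same order, the median gap to a DT40 peak of another site was 39.1, 31.4 and 26.3 kb. A wider gap was thus also found to DT40 peaks. Whether the distance is particular to non-induced peaks was not tested. The groups were also placed differently over the chromosome classes listed below. Of the 273 sites, 155 lay on macrochromosomes, against 1592 of the 3560 sites of both HD3 states. Sites of both HD3 states were sparser there, at 3.5 per Mb, than on microchromosomes, at 8.71 per Mb. The gaps were not compared within a chromosome class, so whether the difference remains there was not tested.

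**Figure D4:**
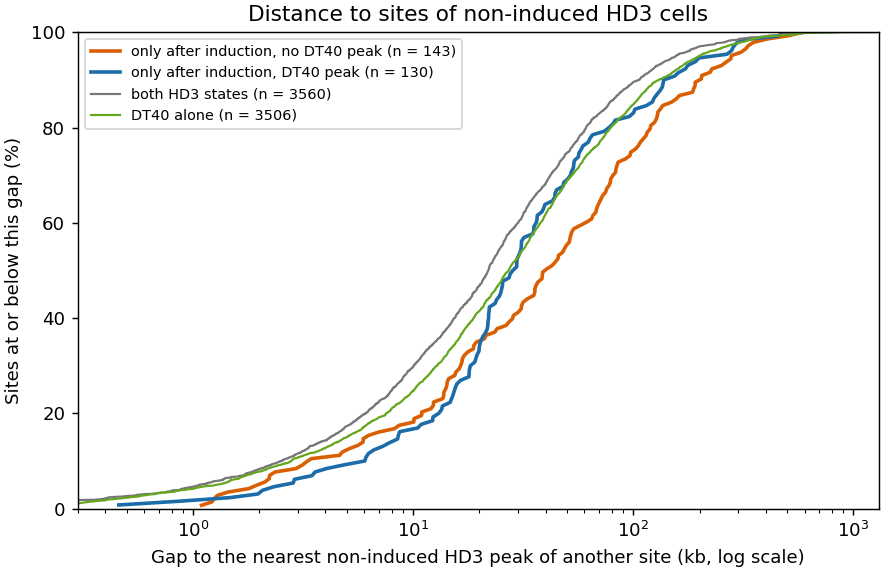
Cumulative share of sites (%) by the gap (kb, log scale) to the nearest non-induced HD3 peak of another site. The curve of sites called only after induction without a DT40 peak lies to the right of the others at the median and the upper quartile. Its median is 40.6 kb, against 21.9 kb for sites of both HD3 states. Its largest gap is 583 kb, against 1262 kb for sites of both HD3 states.

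The most remote sites with a DT40 peak were at chr4:48095144-48095716, at chr1:161276312-161277181 and at chr17:31835-32874. Their nearest non-induced peaks were 476 kb, 457 kb and 318 kb away. Without a DT40 peak they were at chr1:101153068-101153788, 583 kb away, at chr1:42237406-42238395, 511 kb away, and at chr17:10451683-10452582, 407 kb away. The first of these also had no DT40 peak within 583 kb and no other induced peak within 671 kb.

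Some of the sites lay near each other. The share below was not computed for other classes of site, so whether it is low or high for their number was not tested. Another such site was found within 10 kb of 22 of the 273 (8.06%, interval 5.12 to 11.9), in 10 groups. Only 2 groups had 3 sites. The first, at chr1:100389488-100399922, had a DT40 peak at each site, with 30 further DT40 peaks within 50 kb of each. The second, at the last peaks of its chromosome, chr5:59555656-59573701, had no DT40 peak at any site and 2 within 50 kb, and its induced scores were 50.3, 59.8 and 74.6. At least 10 other DT40 peaks lay within 50 kb of 8 of the 273 sites (2.93%, interval 1.27 to 5.69) and of 7 of the 3560 sites of both HD3 states (0.197%, interval 0.0791 to 0.405), a limit chosen after the values were seen. Of these 8 sites, 3 form the group on chromosome 1, so without it 5 remain. By DT40 call, it was 4.62% of the sites with a DT40 peak (6 of 130) and 1.4% of those without (2 of 143). The share was 5.96% (209 of 3506, interval 5.2 to 6.8) for DT40 alone, and this interval overlaps that of the 273 sites. It was not computed over all sites of these chromosomes, so whether the 273 sites differ from them was not tested.

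The sites were spread over all 25 chromosomes, at 1 to 65 per chromosome. They made up 8.87% of induced sites on macrochromosomes 1 and 3 to 5 (155 of 1747, interval 7.58 to 10.3), 4.71% on the intermediate chromosomes 6 to 10 (38 of 806, interval 3.36 to 6.41) and 6.25% on microchromosomes (80 of 1280, interval 4.99 to 7.72). The interval of the macrochromosomes overlapped only that of the microchromosomes. In density the order was different, with 0.340 sites per Mb (interval 0.289 to 0.399) on macrochromosomes, 0.265 (0.188 to 0.364) on intermediate chromosomes and 0.581 (0.461 to 0.723) on microchromosomes, where sites of both HD3 states were also densest at 8.71 per Mb. The share with a DT40 call was alike across the classes, at 46.5% (72 of 155), 50.0% (19 of 38) and 48.8% (39 of 80), with wide intervals. Single chromosomes had few sites. Against 7.12% of all induced sites, the interval excluded that value on chromosome 1 (9.70%, 65 of 670, interval 7.57 to 12.2) and chromosome 7 (2.48%, 4 of 161, interval 0.681 to 6.24) among the 25 compared. The intervals were not adjusted for the 25 comparisons, in which a few such exclusions can arise from counting error alone. The 7.12% also includes the chromosome compared. Chromosome 27 had 13.9% (10 of 72, interval 6.87 to 24.1), and chromosome 16, with 20.0%, had 1 such site out of 5.

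**Figure D5:**
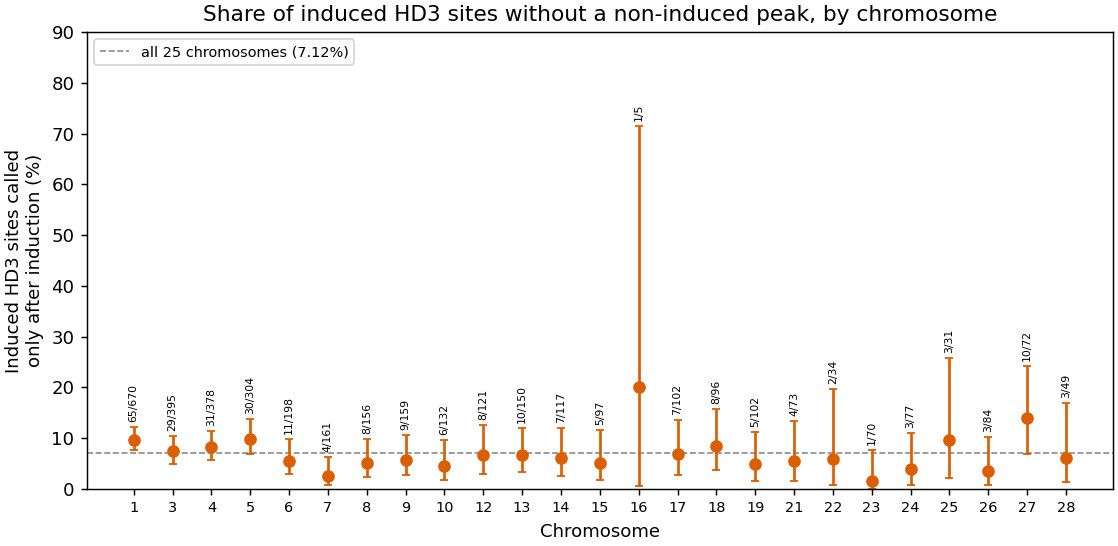
Share of induced HD3 sites (%) called only after induction on each of the 25 chromosomes, with exact 95% binomial intervals for counting error. The fractions give the sites called only after induction over all induced sites, and the dashed line marks the 7.12% of all of them. Most intervals include the line, and those of chromosomes 1 and 7 do not.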

How the data were processed

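The submitters' processing notes name CASAVA 1.8.2, Bowtie2, MACS and the chicken genome build galGal4. The sources used here give neither their settings nor the control behind each peak list. The authors deposited 3 peak lists, 1 for each CTCF library, so peaks were not called on pooled libraries. Each deposited peak has a position and the authors' caller score, whose scale is not stated and which was 50 or more in every list. Scores were compared only within a list.

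From these lists, overlapping peaks (at least 1 bp) were merged into sites. Shares carry Clopper-Pearson intervals and densities exact Poisson intervals, both at 95%. The span of a chromosome ran to the last peak end found there. Merging and distances were tested on simulated lists of widely spaced sites, where every site was placed in its class. Crowded sites were not part of these simulated lists. The sites, groups and limits were chosen with earlier results of these data known. Sites named are the 5 highest-scored with and 5 without a DT40 peak, the 3 most remote of each, the 3 nearest on either side of the rule, all with an induced peak over 3000 bp and all groups of 3 or more within 10 kb. Sites named beyond these were chosen after their values were seen.

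Alternatives changed the overlap rule, distance, score, length, number of peaks and chromosomes. Sequence, motif and gene analyses were not run, since the gene table used here describes another build. The software was Python 3.11.15, SciPy 1.17.1, pandas 2.3.3, NumPy 2.4.6 and, for the plots, matplotlib 3.10.9.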

Additional observations from a re-analysis of the deposited data

How the results depend on the processing

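No paired analysis was possible because the conditions have 1 library each, and leaving out a replicate was likewise impossible. The number of sites called only after induction was 273. A reciprocal overlap of 50% gave 901, equal numbers of top-scored peaks 908, a score of at least 100 in every list 64 and in the induced list alone 23. The first of these asks for peaks of like length, while 3586 of 3597 induced peaks that met a non-induced peak lay wholly inside it. Median lengths were 654 bp for induced peaks of sites of both states and 1220 bp for all non-induced peaks on these chromosomes. A nested induced peak shorter than 50% of the other could not pass. The count with the limit in the induced list alone follows from the fewer induced peaks kept. With equal numbers, the induced list stayed whole and only the other lists were cut. The sites added there are those whose non-induced peak was left out. A score of at least 100 in every list left out induced and non-induced peaks, so sites could be both lost and gained. How many were lost and gained was not counted. The share called in DT40, 47.6%, became 57.8% with a score of at least 100 in every list, 60.9% with that limit in the induced list alone and 21.3% with equal numbers of peaks. The other 9 settings gave values inside its interval, and sites of both HD3 states had the higher share in each of the 6 settings in which they were also counted (65.5% to 87.9%). With a score of at least 100 in the induced list, another such site within 10 kb was found for 34.8% of 23 sites, and no non-induced peak within 100 kb for 43.5%. With a distance of 50 kb in place of 100 kb, the latter was 38.5%. Leaving out broad induced peaks or chromosome ends was chosen after the data were seen. The unknown depth of each library limits every statement on sites that were not called.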

Other observations

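The observations here were chosen after the values were seen. A small part of the sites called only after induction lay near chromosome ends. Of the 273, 9 lay in the first 100 kb of a chromosome (3.30%, interval 1.52 to 6.17), against 24 of 3560 sites of both HD3 states (0.674%, interval 0.432 to 1.00) and 63 of 3506 sites of DT40 alone (1.8%, interval 1.38 to 2.29). The interval of the 273 sites overlaps that of DT40 alone. Sites with a non-induced and no induced peak were not counted, and the share over all sites was not computed. The 9 sites were on chromosomes 1, 13, 14, 16, 17 and 27, and 3 of the 9 were on chromosome 17. When the last peak of each chromosome is taken as its other end, 19 of 273 lay within 100 kb of an end (6.96%, interval 4.24 to 10.7). This was so for 54 of 3560 sites of both HD3 states (1.52%, interval 1.14 to 1.97). For DT40 alone it was 106 of 3506 (3.02%, interval 2.48 to 3.65). Some of the 19 sites lay close together, such as 3 at the end of chromosome 5 and 3 at the start of chromosome 17. The intervals count them as independent, so they are too narrow to that extent. The first induced HD3 site was of this kind on 5 of the 25 chromosomes, and so was the last on 5 of the 25. Each is a share of 20.0% (interval 6.83 to 40.7), which includes the 7.12% over all induced sites. On 4 of the 25 such a site held the last peak of all lists and so set that end itself.

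On chromosome 27, 8 of the 10 sites lay in the first 2 Mb, where they made up 29.6% of induced sites (8 of 27, interval 13.8 to 50.2), against 4.44% (2 of 45, interval 0.543 to 15.1) beyond. None of the 8 had a DT40 peak, for which the exact 95% interval reaches 36.9%, while 12 of the 19 sites of both HD3 states there had one. The 2 sites beyond 2 Mb both had a DT40 peak.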
